A study of Mus musculus with 12 samples.

Results

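The replication-dependent histone genes were taken as every probe set of the array that names at least 1 gene whose older symbol starts with Hist1h, Hist2h, Hist3h or Hist4h. The annotation carries the newer symbols, so each gene was matched through its Entrez identifier to the older symbol in RefSeq. The rule found 58 probe sets, of which 2 repeated the values of another probe set exactly and were dropped, leaving 56 of the 35556 probe sets on the array. They name 69 histone genes of the 21335 genes that the annotation names: 5 probe sets belong to the linker histone H1, 6 to H2A, 17 to H2B, 13 to H3, 12 to H4, and 3 name genes of more than 1 class. Of the 56, 31 name a single gene and 25 name several, because the coding sequences within a class are almost the same and short probes match many copies.

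The samples were plasma cells from mouse bone marrow, the antibody-secreting cells that descend from B cells. Spleen cells of CD45.2 donor mice that were immune to NP-CGG, a model antigen with the small hapten NP on a protein carrier, had been transferred into CD45.1 recipients, which were then challenged with NP-CGG, and donor plasma cells binding NP were sorted 7 days later. The sort kept cells that were CD138+, CD45.2+ and NP+ and removed those with B220, CD45.1, CD11b or Ly6g. The donors were either wild type (Zbtb32 +/+, 6 arrays) or Zbtb32-/- (6 arrays), so the comparison asks how loss of the transcriptional repressor Zbtb32 in the transferred cells affects their RNA in this recall response. The series text calls the 6 arrays of a genotype biological replicates; the labels do not say whether recipients were pooled, and the recipients' own cells carry wild-type Zbtb32.

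Replication-dependent histone genes supply the proteins that package newly copied DNA, and most of their mRNA is made and destroyed again within S phase. H3 and H4 form the tetramer at the centre of the nucleosome, H2A and H2B add a dimer on each side, and H1 binds the linker DNA where it enters and leaves. Their mRNAs end in a conserved stem-loop bound by Slbp rather than in a poly(A) tail, and the genes lie in clusters with Npat as a shared activator. Plasmablasts divide, whereas mature plasma cells have left the cell cycle, so these transcripts are commonly read as a sign of cells that copy their DNA.

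The promoters of the classes carry different short elements, which is why a few of them are shown here before the expression values. RefSeq (GRCm38.p6) gave 63 promoter windows for 62 of the 69 genes, each from 250 bases before to 50 bases after the start. Both strands were searched for exact matches. The octamer ATTTGCAT (ATGCAAAT on the other strand), which the transcription factors Oct-1, present in most cells, and Oct-2 of B cells bind, was in 7 of 17 H2B and 7 of 18 H2A windows, in 0 windows of H1, H3 and H4, and in 1.74% of the 32851 windows of all genes. The following H2B stretches hold the 120 bases before the start of 4 genes measured by a probe set of their own, with the octamer and CCAAT, each on either strand, in capitals. They lie at chr13:23746614-23746733 (H2bc3, plus strand), chr13:21721924-21722043 (H2bc14, plus strand), chr3:96269580-96269699 (H2bc18, plus strand) and chr13:23571280-23571399 (H2bc8, plus strand).
H2bc3: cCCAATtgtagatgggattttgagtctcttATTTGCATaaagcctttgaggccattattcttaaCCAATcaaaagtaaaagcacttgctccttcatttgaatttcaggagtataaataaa
H2bc14: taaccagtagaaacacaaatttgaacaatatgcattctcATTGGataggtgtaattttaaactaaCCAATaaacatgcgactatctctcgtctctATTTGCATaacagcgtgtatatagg
H2bc18: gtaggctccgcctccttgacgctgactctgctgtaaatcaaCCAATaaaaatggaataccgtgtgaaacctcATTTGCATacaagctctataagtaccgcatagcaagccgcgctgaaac
H2bc8: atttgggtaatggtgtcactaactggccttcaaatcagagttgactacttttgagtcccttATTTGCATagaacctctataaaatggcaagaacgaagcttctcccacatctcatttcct

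Each of these H2B stretches holds 1 octamer, and that of H2bc8 holds no CCAAT. This box occurred in all 6 H1, 18 H2A, 17 H2B and 10 H3 windows, in 3 of 12 H4 windows and in 37.4% of all windows. TATAAA was in 8 of 12 H4, 4 of 6 H1, 11 of 18 H2A, 8 of 17 H2B and 4 of 10 H3 windows, against 13.6% of all. In 3 of the 10 H2A and H2B window pairs that overlap on opposite strands, both windows held the octamer: H2ac8 with H2bc8, H2ac12 with H2bc12 and H2ac1 with H2bc1. These matches describe letters in a window and were not read as bound sites.

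The H1 box AAACACA, searched on both strands, was found in 5 of 6 H1 windows, 2 H2A, 2 H2B, 0 H3 and 0 H4 windows, and in 7.18% of all windows; the H2bc14 stretch above holds it in lower case. The 120 bases before the start of 3 linker histone genes are shown with the H1 box and CCAAT in capitals. They lie at chr13:21780626-21780745 (H1f5, minus strand), chr13:23738687-23738806 (H1f2, plus strand) and chr13:23763548-23763667 (H1f1, plus strand).
H1f5: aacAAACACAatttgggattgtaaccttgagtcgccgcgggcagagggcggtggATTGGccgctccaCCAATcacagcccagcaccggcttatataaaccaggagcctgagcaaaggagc
H1f2: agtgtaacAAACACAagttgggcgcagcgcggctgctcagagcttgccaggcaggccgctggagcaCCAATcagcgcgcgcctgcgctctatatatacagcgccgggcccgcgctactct
H1f1: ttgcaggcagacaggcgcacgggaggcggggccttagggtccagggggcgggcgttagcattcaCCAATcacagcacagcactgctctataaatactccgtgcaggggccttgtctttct

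H1f1 is the H1 gene without an exact H1 box in its window; it holds CCAAT like the others.

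The deposited values are log2 RMA intensities, and differences below are Zbtb32-/- minus wild type in log2 units unless a sentence says otherwise. Array medians ranged from 6.28 to 6.43, and pairs of arrays correlated at 0.914 to 0.984 over all probe sets. The Zbtb32 probe set lay between 6.39 and 6.88 on the wild-type arrays and between 6.47 and 6.73 on the Zbtb32-/- arrays (difference -0.11, two-sided exact permutation test over 924 assignments, p = 0.173); its groups overlapped, so it does not check the labels, and where its probes lie relative to the deleted part is not given. All 8 plasma cell markers were measured, and their mean ranged from 10.75 to 11.52 in wild type and from 10.86 to 11.48 in Zbtb32-/-. Sdc1, the CD138 gene of the sort, ranged from 10.32 to 11.34 in wild type and from 10.70 to 11.25 in Zbtb32-/-. As the sort marker, Sdc1 is no independent check of the label. Markers of other cells were also present. The mean of 7 of 8 B cell markers ranged from 7.80 to 9.24 in wild type and from 8.11 to 8.66 in Zbtb32-/-. On wild-type replicate 4 the B cell gene Pax5 read 10.59 and the plasma cell gene Prdm1 8.51. The mean of 12 of 12 neutrophil and granulocyte precursor markers ranged from 7.92 to 10.69 in wild type and from 8.82 to 11.97 in Zbtb32-/-, although the sort excluded Ly6g+ and CD11b+ cells. The mean of 11 of 12 erythroid markers ranged from 6.35 to 7.92 and from 6.85 to 7.64, and that of 8 of 8 B cell precursor markers from 6.96 to 8.31 and from 6.74 to 7.70. These means leaned by genotype. The difference was -0.37 for B cell markers (7 of 7 below 0) and -0.36 for B cell precursor markers (6 of 8 below 0). It was 0.34 for neutrophil and granulocyte precursor markers (12 of 12 above 0) and 0.30 for erythroid markers (10 of 11 above 0). In each list 0 genes passed by limma's adjusted p. Dividing erythroid, granulocyte and B cell precursors also make histone mRNA. Genotype fits with the erythroid or the neutrophil and granulocyte precursor mean as a covariate are given below. B cell precursors had no such fit, and how much of the histone values comes from any of these cells was not tested. With bulk samples, fewer cells in S phase and less histone RNA per cell cannot be told apart.

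No histone transcript passed the test of a difference between genotypes, although most leaned towards Zbtb32-/-. In limma's test over 17358 probe sets, Benjamini-Hochberg adjusted p was under 0.05 for 0 probe sets (percent called 0), and 738 (4.25%) had an unadjusted p under 0.05. Of the 53 histone probe sets above the filter on low values (a mean above 5.49), 0 passed by adjusted p and 0 had an unadjusted p under 0.05, with limma's adjusted p between 0.923 and 0.997 and a smallest unadjusted p of 0.069. The fitted difference was above 0 for 47 of the 53 and below 0 for 6, with a median of 0.13; over all 17358 probe sets 53.1% were above 0 and the median was 0.013. Among the 11584 brighter ones of a stricter filter, 64.5% were above 0 and the median was 0.063. Multi-gene members that share probes are not separate measurements, so the 47 of 53 cannot be read as an excess over these shares. Of the 28 single-gene members tested, 23 were above 0 and 5 below, with a median of 0.095. In every one of the 53 the genotype groups overlapped, and at most 4 of 6 Zbtb32-/- arrays lay above the highest wild-type array.

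The precision of 6 against 6 arrays bounds what could have been seen. All 53 of the 95% intervals lay within 1 log2 unit of 0, and their median half-width was 0.33, against 0.31 over all probe sets tested. The classes differed in the size of their median difference: 0.33 for H3 (11 of 11 above 0), 0.14 for H2B (16 of 17), 0.12 for H4 (11 of 12), 0.047 for H1 (3 of 5) and 0.010 for H2A (4 of 5), with 0.081 for the 3 mixed probe sets. These class medians are descriptions with no test, since copies within a class share probes and cannot count as separate measurements. Single arrays moved the median over all 53: leaving out Zbtb32-/- replicate 6 gave 0.20, leaving out Zbtb32-/- replicate 4 gave 0.085, and leaving out wild-type replicate 2 gave 0.071.

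**Figure D1:**
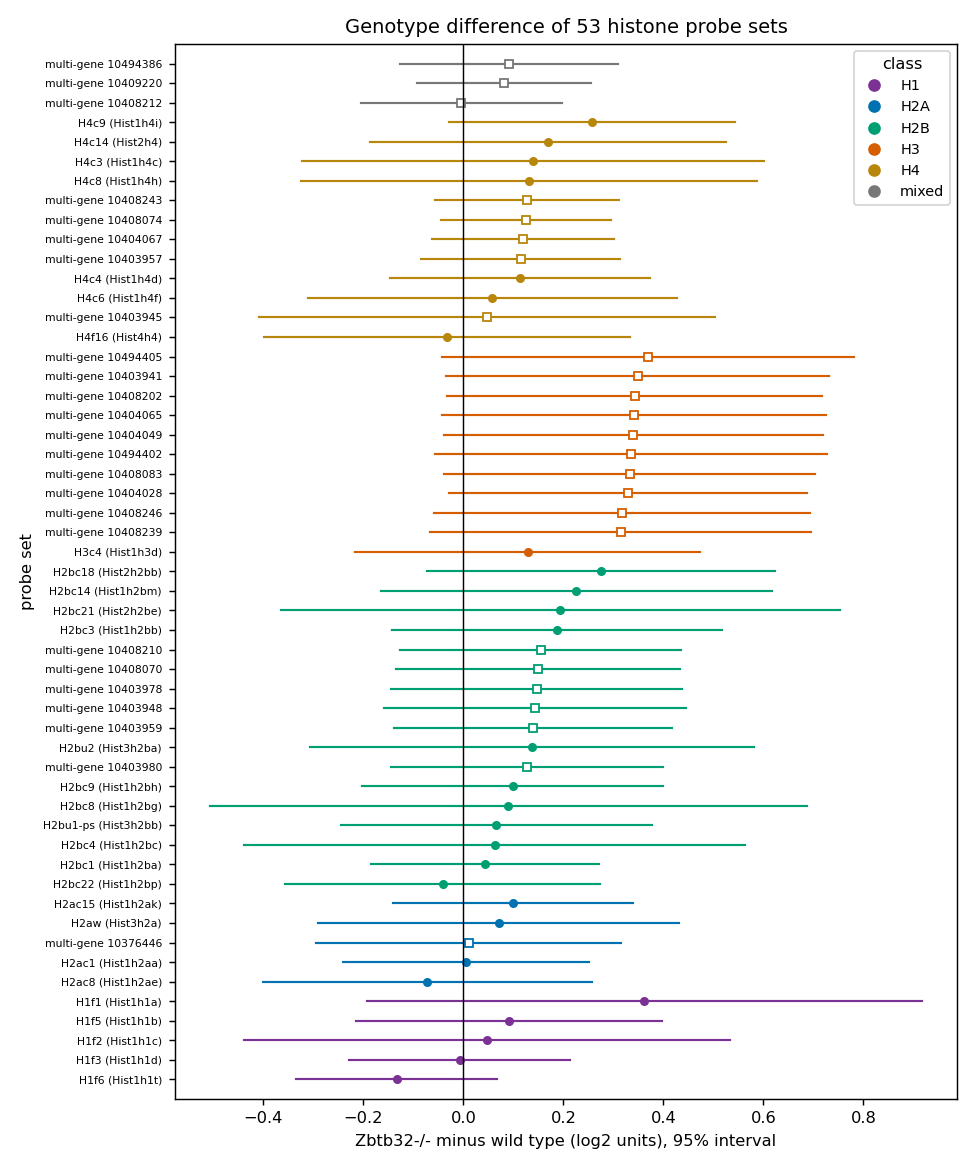
Difference between genotypes (Zbtb32-/- minus wild type, log2 units, horizontal axis) of the 53 histone probe sets above the filter, with limma's 95% interval, coloured by class; open squares name several genes and filled circles name 1. All intervals include 0, and the 10 multi-gene H3 probe sets lie together between 0.31 and 0.37.

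H3, with H4 the core of the nucleosome, had the largest median difference of the classes. Its 10 multi-gene probe sets each name the same 12 H3 genes. The one with the highest mean (10494405) read 11.14 at the lowest, 11.72 at the median and 12.07 at the highest in wild type, and 11.30, 12.08 and 12.37 in Zbtb32-/-. Zbtb32-/- replicates 3, 4 and 5 lay above every wild-type array, and Zbtb32-/- replicate 6 lay below 4 of the 6 wild-type arrays. The difference was 0.37 ± 0.19 (SE, n = 6 per genotype; limma p = 0.074, adjusted p = 0.923; two-sided exact permutation p = 0.121). Over the 10 probe sets the difference ran from 0.31 to 0.37 and limma's unadjusted p from 0.069 to 0.097.

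These 10 probe sets behaved as 1 measurement. Once each was set against its own mean, they lay within 0.14 of one another on any array, while their median spanned 1.14 from the lowest to the highest array. All 10 were lowest on wild-type replicate 4 and highest on Zbtb32-/- replicate 3. Only 1 single-gene H3 probe set passed the filter, H3c4 (Hist1h3d), with 5.89, 6.10 and 6.71 as lowest, median and highest in wild type and 6.00, 6.21 and 6.74 in Zbtb32-/-. Its difference was 0.13 ± 0.16 (SE; limma adjusted p = 0.940), so the H3 median rests on probes shared by many copies. H3c7 (Hist1h3f) and H3c15 (Hist2h3c2), at means of 4.81 and 4.55, fell below the filter and had no limma test. H3c7 lay between 4.67 and 5.06 in wild type and between 4.43 and 4.83 in Zbtb32-/- (difference -0.21, exact permutation p = 0.035, not adjusted). H3c15 lay between 3.85 and 5.13 and between 4.32 and 5.19 (difference 0.34, exact permutation p = 0.145).

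H4 leaned the same way with smaller differences. The multi-gene probe set with the highest mean (10404067) read 12.85, 13.11 and 13.20 in wild type and 12.84, 13.24 and 13.39 in Zbtb32-/-. In it 4 Zbtb32-/- arrays lay above every wild-type array, and Zbtb32-/- replicate 6 was the lowest of all 12. The difference was 0.12 ± 0.08 (SE; limma adjusted p = 0.923; exact permutation p = 0.232). Together with 3 others it names 11 H4 genes, and these 4 stayed within 0.09 of one another on any array with differences of 0.11 to 0.13.

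Of the 7 single-gene H4 probe sets, H4c14 and H4c3 had 4 Zbtb32-/- arrays above all of wild type. H4c14 (Hist2h4), in the Hist2 cluster, read 12.55, 12.68 and 12.91 in wild type and 12.24, 13.04 and 13.44 in Zbtb32-/-: Zbtb32-/- replicates 1 to 4 were above every wild-type array and replicates 5 and 6 below every one. Its difference was 0.17 ± 0.17 (SE; limma adjusted p = 0.927). H4c3 (Hist1h4c) read 9.17, 9.40 and 9.70 against 8.55, 9.80 and 9.89, again with 4 Zbtb32-/- arrays above all of wild type and replicate 6 below all. H4c9 (Hist1h4i) had the smallest limma p of the single-gene histone probe sets above the filter, with 9.62, 9.81 and 10.16 against 9.80, 10.08 and 10.52 (difference 0.26 ± 0.13 SE; limma p = 0.074, adjusted p = 0.923; exact permutation p = 0.074). H4c4 (Hist1h4d) differed by 0.11 ± 0.12 (SE). The H4 median was 0.22 within replicates 1 to 3 (12 of 12 above 0) and -0.0079 within replicates 4 to 6 (6 of 12 above 0). The lean was thus seen in replicates 1 to 3 and had no direction in replicates 4 to 6. The 2 sets were not tested against each other, this split was known from earlier results, and the labels name no batch.

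H2B, which pairs with H2A, was the class with the most probe sets. The multi-gene probe set with the highest mean (10403980) read 11.60, 12.18 and 12.35 in wild type and 11.87, 12.24 and 12.47 in Zbtb32-/-. Wild-type replicate 2 was the lowest array and Zbtb32-/- replicate 4 the highest, and the groups overlapped over most of their range. The difference was 0.13 ± 0.13 (SE; limma adjusted p = 0.927). The 6 multi-gene H2B probe sets name 14 or 15 genes each, stayed within 0.15 of one another on any array, and differed by 0.13 to 0.15.

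Of the H2B genes with the octamer shown above, H2bc18 (Hist2h2bb) had the most even separation. It read 9.02, 9.40 and 9.99 in wild type and 9.53, 9.74 and 9.90 in Zbtb32-/-. All 6 Zbtb32-/- arrays were above the wild-type mean, yet wild-type replicate 3 was above all of them (difference 0.28 ± 0.16 SE; limma p = 0.111, adjusted p = 0.923; exact permutation p = 0.119). H2bc14 (Hist1h2bm) read 10.49, 11.10 and 11.50 against 10.77, 11.30 and 11.72, a difference of 0.23 ± 0.18 (SE). H2bc3 (Hist1h2bb) read 10.96, 11.62 and 11.85 against 11.25, 11.82 and 11.95, a difference of 0.19 ± 0.15 (SE). For both, wild-type replicate 2 was the lowest of the 12 arrays and Zbtb32-/- replicate 6 the lowest of its group, and without wild-type replicate 2 the differences were 0.11 and 0.07. The H2B median without that array was 0.06.

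H2A, the partner of H2B, had differences close to 0, of which 4 of 5 lay above it. The bright mixed probe sets 10409220 and 10494386, which name genes of the H2A family and H3c4, differed by 0.081 and 0.091. H2ac15 (Hist1h2ak) read 9.85, 10.04 and 10.32 in wild type and 9.82, 10.17 and 10.39 in Zbtb32-/-, a difference of 0.10 ± 0.11 (SE; limma adjusted p = 0.933). H2aw (Hist3h2a) read 10.01, 10.80 and 11.20 against 10.57, 10.80 and 10.98, with the same median in both groups and the wild-type arrays spread more widely (SD 0.42 against 0.14, n = 6 each). H2ac8 (Hist1h2ae) read 6.63, 6.81 and 7.37 against 6.45, 6.78 and 7.16, a difference of -0.07 ± 0.15 (SE). A probe set shared by H2aw and the neighbouring Trim17 (10376446) differed by 0.01 ± 0.14 (SE). H2ac4 (Hist1h2ab) lay below the filter, between 4.46 and 5.30 in wild type and between 4.36 and 5.59 in Zbtb32-/-. Without wild-type replicate 6 the H2A median changed sign to -0.072.

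The linker histones were read by 5 single-gene probe sets with no shared direction. H1f5 (Hist1h1b), a main linker histone of dividing cells, read 9.33, 9.64 and 9.87 in wild type and 9.42, 9.73 and 10.09 in Zbtb32-/- (difference 0.09 ± 0.14 SE; limma adjusted p = 0.952). H1f1 (Hist1h1a) read 7.75, 9.11 and 9.45 against 8.70, 9.32 and 9.77. Its difference of 0.36 ± 0.26 (SE; limma adjusted p = 0.923; exact permutation p = 0.245) became 0.13 without wild-type replicate 2, the array at 7.75. H1f3 (Hist1h1d), at 5.48 to 6.11 and 5.65 to 5.93, and the testis-specific H1f6 (Hist1h1t), at 5.33 to 5.96 and 5.39 to 5.60, lay close to the filter; all 6 Zbtb32-/- arrays were below the wild-type mean of H1f6 (difference -0.13 ± 0.09 SE; limma adjusted p = 0.923; exact permutation p = 0.180). H1f2 is described below with the members that left the common pattern.

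The histone values varied from array to array by more than the difference between genotypes. Each probe set was set against its own mean over the 12 arrays and the median taken over the members. Over all 53 this median was -0.15, -0.29, 0.21, -0.01, 0.05 and -0.10 on wild-type replicates 1 to 6, and 0.09, 0.09, 0.20, 0.28, 0.11 and -0.33 on Zbtb32-/- replicates 1 to 6. The lowest array was thus a Zbtb32-/- array and the second lowest a wild-type array. Over all 17358 probe sets the same median stayed between -0.06 and 0.04 on every array. Of the 53 members, 17 were lowest on Zbtb32-/- replicate 6 (10.6% of all probe sets tested were), 14 on wild-type replicate 2 (13.9%) and 12 on wild-type replicate 4 (13.1%), and 19 were highest on Zbtb32-/- replicate 4 (9.42%) and 16 on Zbtb32-/- replicate 3 (9.50%). The 10 multi-gene H3 probe sets, which behaved as 1 measurement, are all in the counts for wild-type replicate 4 and Zbtb32-/- replicate 3. The 6 multi-gene H2B probe sets, which also moved together, are all in those for wild-type replicate 2 and Zbtb32-/- replicate 4. The 4 H4 probe sets that name 11 genes are all in the count for Zbtb32-/- replicate 4, and most are in that for replicate 6. These counts therefore cannot be read as an excess over the shares in brackets.

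**Figure D2:**
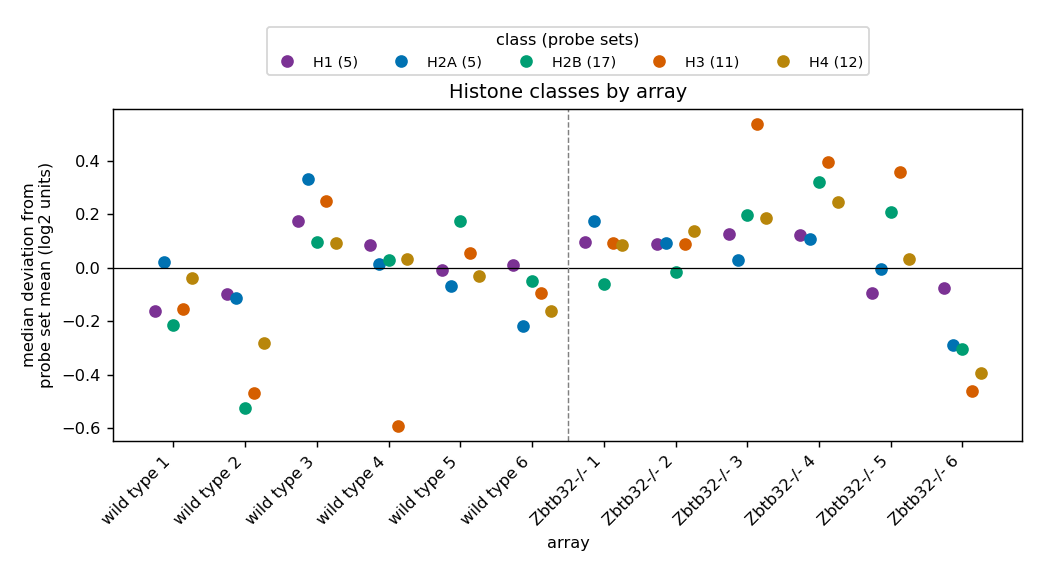
Median deviation of each histone class from its probe sets' own means (log2 units, vertical axis) on each of the 12 arrays, with the number of probe sets per class in the key. Wild-type replicate 2 and Zbtb32-/- replicate 6 are below 0 in all 5 classes, and on wild-type replicate 4 H3 lies at -0.59 while H2B and H4 lie at 0.03.

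On wild-type replicate 4 the H3 median, which rests on the 10 multi-gene probe sets, lay apart from the other core histones. There the median deviation was -0.59 for H3, 0.03 for H2B, 0.03 for H4, 0.01 for H2A and 0.09 for H1. The single-gene H3c4 was at 6.24 on that array, against a mean of 6.23 over all 12, so it did not share the low value. That mean lies below the median of every array (6.28 at the lowest), so H3c4 is a weak check on the bright shared probes. On wild-type replicate 2 it was -0.53 for H2B and -0.47 for H3 but -0.28 for H4 and -0.10 for H1. Zbtb32-/- replicate 6 was low in H3 (-0.46), H4 (-0.40), H2B (-0.30) and H2A (-0.29) and near the mean in H1 (-0.08). Leaving out wild-type replicate 4 took the H3 median difference to 0.25, and leaving out Zbtb32-/- replicate 6 took it to 0.46.

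Marker levels of other cells differed on the same arrays. Zbtb32-/- replicate 6 had the highest mean of the 12 neutrophil and granulocyte precursor markers, 11.97, and a plasma cell marker mean of 10.86, the lowest of its group. Wild-type replicate 2 had the lowest neutrophil and granulocyte precursor mean, 7.92, and the lowest erythroid mean, 6.35. Wild-type replicate 4 had the lowest plasma cell mean, 10.75, and the highest B cell precursor mean, 8.31. With the neutrophil and granulocyte precursor mean as a covariate the H3 median difference was 0.37 and the median over all members 0.14; with the erythroid mean they were 0.25 and 0.08. No histone probe set passed limma's adjusted threshold in either fit.

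A few members left this common pattern, chosen here after their values were seen where the naming rule did not pick them. H2bc4 (Hist1h2bc), H1f2 (Hist1h1c) and H2bc21 (Hist2h2be) are known to make polyadenylated transcripts in cells that no longer divide, besides the stem-loop form. H2bc4 read 8.76, 9.57 and 9.98 in wild type and 9.19, 9.36 and 10.28 in Zbtb32-/-. Its highest array was Zbtb32-/- replicate 6, on which 17 of the 53 members were lowest (difference 0.06 ± 0.23 SE; limma adjusted p = 0.981).

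H1f2 read 9.98, 10.39 and 10.83 in wild type and 9.44, 10.60 and 10.93 in Zbtb32-/-. It was lowest on Zbtb32-/- replicate 4, where 19 other histone probe sets were at their highest (difference 0.05 ± 0.23 SE; limma adjusted p = 0.986). H2bc21 read 5.52, 6.57 and 7.40 against 6.46, 6.70 and 7.26 (difference 0.19 ± 0.26 SE; limma adjusted p = 0.944; -0.02 without wild-type replicate 2). Within wild type it kept the common pattern, lowest on replicate 2 and highest on replicate 3. It left the pattern on Zbtb32-/- replicate 6, which at 7.26 was the highest array of its group. H2bc8 (Hist1h2bg), whose promoter stretch held the octamer but no CCAAT, spanned 8.79 to 10.53 in wild type and 9.39 to 10.40 in Zbtb32-/-. It was highest on wild-type replicate 2. On that array 10 of the 17 H2B probe sets were lowest, among them the 6 multi-gene ones that moved together. The H2bc8 difference was -0.37 within replicates 1 to 3 and 0.55 within replicates 4 to 6. Those within-set differences were not tested against each other.

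**Figure D3:**
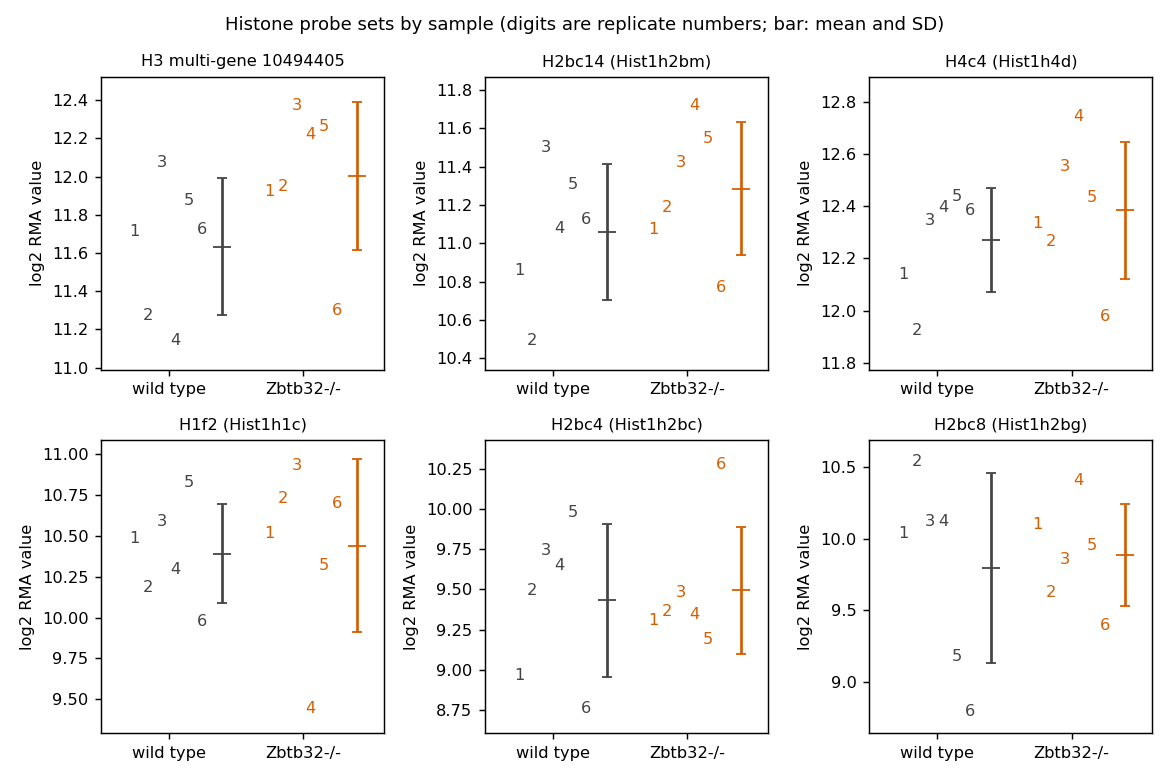
Log2 RMA value (vertical axis) of 6 histone probe sets on each array, with digits giving the replicate number and bars the mean and SD of each genotype (n = 6). In the upper row wild-type replicate 2 and Zbtb32-/- replicate 6 are low, though the H3 probe set is lowest on wild-type replicate 4. In the lower row H2bc4 is highest on Zbtb32-/- replicate 6, H2bc8 is highest on wild-type replicate 2, and H1f2 is lowest on Zbtb32-/- replicate 4.

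Mki67 and Pcna served as references for proliferation. Mki67, a chromosome surface protein of cycling cells, ranged from 11.69 to 12.01 in wild type (median 11.76) and from 11.84 to 12.14 in Zbtb32-/- (median 11.99), a difference of 0.20 ± 0.07 (SE; limma adjusted p = 0.923; exact permutation p = 0.026). Pcna, the sliding clamp of DNA polymerase, ranged from 11.70 to 12.27 (median 12.14) and from 12.17 to 12.35 (median 12.30), a difference of 0.20 ± 0.08 (SE; limma adjusted p = 0.923; exact permutation p = 0.015). Neither passed the adjusted threshold, and in both the groups overlapped. With genotype in the fit, the slope of Pcna on Mki67 was -0.09 ± 0.37 (SE). The 2 references were thus not seen to rise together over these arrays, and their slopes cannot be taken as 2 readings of 1 level.

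No histone probe set passed the test for the Mki67 level once genotype was in the fit. limma called 0 of 17357 probe sets for the Mki67 term by adjusted p (percent called 0), with 376 (2.17%) at an unadjusted p under 0.05, and the members gave 0 and 0. The slope was above 0 in 35 of 53 members, with a median of 0.17 log2 units per log2 unit of Mki67, against -0.04 over all probe sets. This direction turned with the scaling: after renewed quantile normalization 8 of 53 slopes were above 0 (median -0.31, against -0.14 over all probe sets), and after median centring 42 of 53 (median 0.45). It also turned with the replicates used, with a median of -0.20 within replicates 1 to 3 and 2.25 within replicates 4 to 6. In the latter, 28 of 53 members had a positive slope at an unadjusted p under 0.05, against 6.19% of all probe sets, and 0 passed by limma's adjusted p. Members that share probes are not separate measurements, so this count cannot be read as an excess over 6.19%. H1f2 (-1.69 ± 0.91 SE) and H2bc4 (-1.58 ± 0.96 SE) had 2 of the 3 smallest p of any member, both with negative slopes. Mki67 itself spanned 0.45 log2 units over the 12 arrays, which limits what its slope can show.

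The Pcna level gave slopes above 0 in 46 of 53 members, with a median of 0.65 log2 units per log2 unit of Pcna against -0.05 over all probe sets. By adjusted p limma called 24 of 17356 probe sets (0.138%) and 0 histone probe sets. At an unadjusted p under 0.05, 11 of 53 members had a positive slope, 10 of them H2B and the other H1f1, against 6.4% of all probe sets. H1f6 had a negative one. Of the 10 H2B probe sets, 6 are the multi-gene ones that share genes and moved together. These 6 do not count as separate measurements, so the count cannot be read as an excess over 6.4%. H1f1 had the largest slope of those named, 2.66 ± 0.62 (SE; limma adjusted p = 0.119), followed by H2bc21 with 2.46 ± 0.70 (SE; adjusted p = 0.211). The multi-gene H2B probe set 10403959 had 1.12 ± 0.37 (SE; adjusted p = 0.289).

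The count at an unadjusted p under 0.05 rested on wild-type replicate 2, which had the lowest Pcna, 11.70, and the lowest value of all 3 of these probe sets. Without it, 0 of 53 members had a positive slope at an unadjusted p under 0.05 against 1.25% of all probe sets, while 46 slopes were above 0 with a median of 0.75, against 0.12 over all probe sets. That count also moved with the scaling: it was 3 after renewed quantile normalization (6.49% of all probe sets; 40 of 53 slopes above 0, median 0.25) and 15 after median centring (7.95%; 47 of 53, median 0.79). Within replicates 1 to 3, which hold that array, limma called 10 members by adjusted p (lowest 0.042), against 2.71% of all probe sets. Here too, members that share probes are not separate measurements. Within replicates 4 to 6 it called 0, and the median slope was -1.25.

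**Figure D4:**
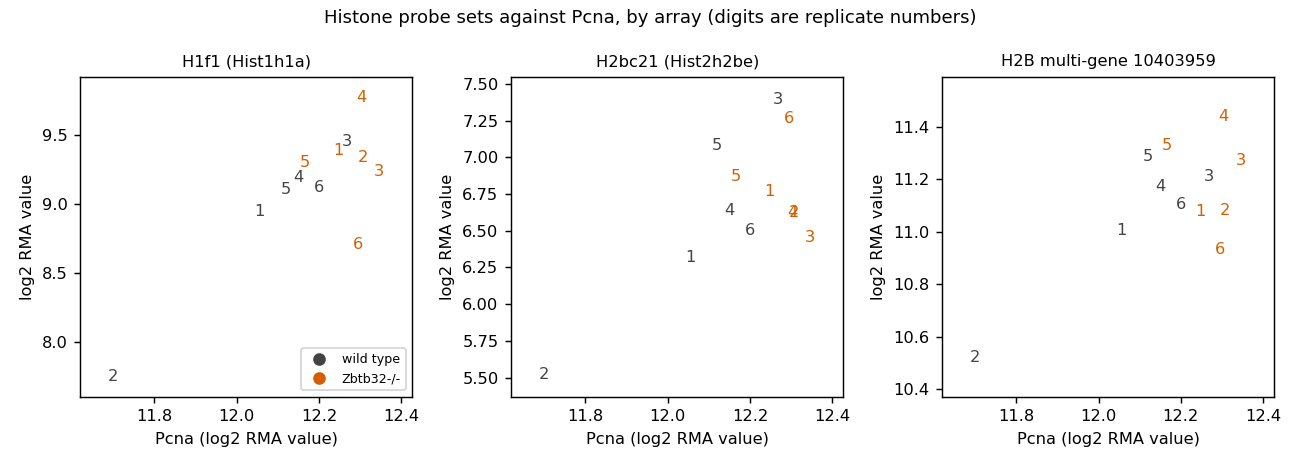
Log2 RMA values of H1f1, H2bc21 and the multi-gene H2B probe set 10403959 (vertical axes) against Pcna (horizontal axis) on the 12 arrays; digits are replicate numbers and colours the genotype. Wild-type replicate 2 stands alone at the lower left of each panel, at Pcna 11.70.

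Genes that make, process and deposit these histones, and variant histone genes, were taken from 3 lists. Of all 17358 probe sets tested, 53.1% had a difference above 0 and 4.25% an unadjusted limma p under 0.05. The list genes tested had means above the stricter filter (6.55). Of the 11584 probe sets above it 64.5% had a difference above 0, which is the closer share for these lists. Of 15 genes for histone gene transcription and 3′ end processing, all 15 were tested, 13 had a difference above 0, 0 passed by limma's adjusted p and 2 had an unadjusted p under 0.05 (median 0.16). Npat, the activator of histone genes, differed by 0.42 ± 0.20 (SE; limma adjusted p = 0.923; exact permutation p = 0.084). Sympk and Cstf2, subunits of the machinery that cleaves histone pre-mRNA, differed by 0.37 ± 0.16 and 0.32 ± 0.14 (SE; limma adjusted p = 0.923 for both; exact permutation p = 0.045 and 0.030).

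Of 18 histone chaperone and deposition genes 16 were measured, of which 13 had a difference above 0, 0 passed by limma's adjusted p and 1 had an unadjusted p under 0.05 (median 0.10). Asf1b, which hands new H3 and H4 to the replication fork in dividing cells, read 9.80 ± 0.39 in wild type and 10.25 ± 0.20 in Zbtb32-/- (SD, n = 6 each; difference 0.46 ± 0.17 SE; limma adjusted p = 0.923; exact permutation p = 0.030). Its paralog Asf1a differed by 0.39 ± 0.19 (SE) and the H4-binding Rbbp7 by 0.11 ± 0.07 (SE). Of 11 replication-independent variant genes 9 were measured and 7 tested, with 5 above 0, 0 called and 1 at an unadjusted p under 0.05 (median 0.07). The 2 below the filter, Macroh2a2 and H3f3a, differed by -0.32 and -0.049. H2az1, the H2A variant at promoters, differed by 0.21 ± 0.08 (SE; limma adjusted p = 0.923; exact permutation p = 0.041), H2ax, the variant marked at DNA breaks, by 0.30 ± 0.15 (SE), and Cenpa, the H3 variant of centromeres, by 0.24 ± 0.13 (SE).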

How the data were processed

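Total RNA of 12 sorted samples was read on Affymetrix arrays, 6 per genotype. The authors deposited log2 values, which the submitters' processing notes credit to RMA in Affymetrix Expression Console. Versions and genome build are not given in the sources used here. By design this method sets the probe intensities of the arrays to 1 distribution before they are summarized, so a shift shared by most genes is not visible. The deposited probe set values were not on 1 distribution, with array medians from 6.28 to 6.43. How the labelling kit copies mRNA without a poly(A) tail is likewise not given. The platform annotation names 1 gene for 21789 probe sets, several for 1621 and none for 12146. The values were tested as deposited, without counts or depth, so the precision rests on the number of arrays and on each probe set's spread between them.

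limma 3.58.1 in R 4.3.3 (lmFit, eBayes with a trend, two-sided, Benjamini-Hochberg, threshold 0.05) was fitted to 17358 distinct named probe sets with a mean above the 25th percentile of single-gene probe sets (5.49), with genotype alone and with genotype plus the Mki67 or Pcna level. The fits were tested on simulated data. Tables and figures were made with Python 3.11.15, pandas 2.3.3 and matplotlib 3.10.9. Named per class were the 2 single-gene probe sets with the highest mean, the 2 with the smallest genotype p, the 1 with the widest range and the multi-gene one with the highest mean, plus the 3 smallest p with Mki67 and with Pcna, and 3 genes per pathway list by p. Members, lists and alternatives (normalization, filter, variance model, array weights, marker covariates, replicates left out) were chosen with earlier results of these data known. The deviations of same-numbered arrays from their group means correlated at 0.547, 0.129, 0.325, 0.112, 0.288 and 0.221 for numbers 1 to 6. Ranked among all Zbtb32-/- arrays by correlation with each wild-type array, the same-numbered one came 1, 3, 3, 3, 2 and 1. These ranks do not establish a pairing, and the labels do not say what a shared number means. The main fit was therefore unpaired, and a replicate block was fitted as an alternative.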

Additional observations from a re-analysis of the deposited data

Results flagged for a closer look

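A gap test for a lone high or low array within a genotype (Dixon's ratio, critical value 0.625 for 6 arrays) was run on 70 groups and marked 8. Its nominal rate of 5% is no reference here. Some probe sets were named for a wide range or a small p, and groups share probe sets and arrays. The next array in brackets is of the same genotype. Among wild-type arrays, replicate 2 was at -0.29 over all histone probe sets and replicate 6 at 7.77 in 10376446. Of the 8 marked, 5 concern Zbtb32-/- replicate 6. On it the median deviation of all histone probe sets was -0.33 (next array 0.09) and that of H4 was -0.40 (next 0.03). H4c3 read 8.55 there (next 9.45) and the probe set of H2aw and Trim17 (10376446) read 7.93 (next 8.24), whereas H2bc4 was high at 10.28 (next 9.48). Wild-type replicate 2 was low in H1f1 at 7.75 (next 8.95) and in the multi-gene H2B probe set 10403959 at 10.52 (next 11.00). Mki67 on wild-type replicate 1 was high at 12.01 (next 11.81). Zbtb32-/- replicate 6 also had the highest neutrophil and granulocyte precursor marker mean, 11.97, and wild-type replicate 2 the lowest, 7.92; their part in these values was not tested.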

How the results depend on the processing

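Each result was recomputed under 28 alternatives, or 27 where single-gene probe sets only or the stricter filter leaves no value. The count of histone probe sets called by genotype was 0 in all of them (lowest limma adjusted p 0.484), and so was the count called with Mki67 (lowest 0.193). With the replicate block, which pairs same-numbered arrays, 0 histone probe sets were called by genotype, by Mki67 and by Pcna, so it changed no call. The count called with Pcna was 10 within replicates 1 to 3 alone, where limma called 2.71% of all probe sets, and 0 elsewhere. The sign of the median Mki67 slope turned with the scaling. The median difference over all members ran from 0.04 (replicates 4 to 6 alone) to 0.22 (replicates 1 to 3 alone). The H1 median of 0.047 was 0.20 within replicates 1 to 3 and -0.068 within replicates 4 to 6. The H2A median ran from -0.09 to 0.08 and changed sign in 8 alternatives, and the H4 median in 1. The H3 and H2B medians stayed above 0 in all 28, but H3 was 0.13 on single-gene probe sets only, where 1 remains. Renewed quantile normalization gave 0.08 over all members and median centring 0.15. Of 636 values of named probe sets, 51 in 13 probe sets had another sign, and 0 had an adjusted p under 0.05.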
